A study of Mus musculus with 20 samples.

Results

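The matrix metalloproteinases (Mmp), the membrane-anchored Adam proteins, the secreted Adamts proteases, the Adamts-like proteins (Adamtsl) and 3 of their tissue inhibitors (Timp2, Timp3 and Timp4) were described across cultured mouse forebrain slices. Members were chosen by symbol alone: Mmp, Adam, Adamts or Adamtsl followed by a number, with an optional letter for Mmp and Adam, plus the 3 Timps. The 24 h table held 83 members among 51912 genes (23 Mmp, 33 Adam, 19 Adamts, 5 Adamtsl and 3 Timp genes), and the 4 h table held 61 of them among 19722 genes. Of these, 49 passed the filter on low values at 4 h and 55 at 24 h. At 24 h, 11 members had no read in any library.

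Mmp, Adam and Adamts enzymes are zinc proteases of one superfamily, made as inactive precursors and opened by proprotein convertases or other proteases. Mmps cut collagens, laminins and other matrix proteins, Adams release the outer parts of membrane proteins, and several Adamts enzymes cut the hyaluronan-bound proteoglycans (lecticans) that fill the brain's extracellular space. Timps bind the active site of these enzymes, and Adamtsl proteins resemble Adamts proteases without the catalytic part. RNA levels were measured here, and these do not report how much enzyme was active.

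Slices came from the forebrain of pups at postnatal day 4 and all were given 5% horse serum. The label knockout (KO) refers to Tnfaip6, the gene of TSG-6, a protein that binds hyaluronan. At 4 h there were 3 wild-type (WT) and 3 KO-labelled libraries, and at 24 h each sex had 3 heterozygous (Het) libraries beside 4 KO-labelled ones. No slices without serum were analysed here, so serum is common to every group. For 24 h, the treatment text names WT slices, but titles and genotype fields give heterozygous, which was followed. The medium is HBSS in the series text and DMEM in the sample protocols. Whether replicate libraries are different animals is not stated, and p-values therefore cover only library-to-library spread, which may be technical.

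Library totals ran from 11411532 to 15030171 reads at 4 h and from 8482933 to 18051300 at 24 h. Reads of Tnfaip6 itself were not lost under the KO label: its normalised reads at 4 h were 67.2, 92.6 and 84.4 in WT and 40.6, 73.2 and 83.3 in KO-labelled libraries, and it lay between 3.43 and 8.09 CPM (read counts scaled to the library total) over the 14 libraries at 24 h. Libraries are therefore called KO-labelled. The library KO female 2 held 1650 Y-linked reads and no Xist read, against its label. Het male 1 held 107 Xist reads beside 1470 Y-linked reads, and the other males at 24 h held at most 5 Xist reads. At 24 h, reads of the choroid plexus gene Ttr were 19661 in KO female 1, 48186 in KO female 3 and 4922 in KO male 3, and at most 8 in any other library. At 4 h, WT 1 and KO 1 held 5655 and 2355 Xist reads, and the other 4 libraries held at most 3 and between 1483 and 2098 Y-linked reads.

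Levels per transcript length (TPM, the length-scaled share of a library) were dominated by an inhibitor. Timp2, which both inhibits Mmps and helps Mmp14 activate pro-Mmp2, had 486 ± 21 TPM at 4 h (SD, n = 6) and 600 ± 28 at 24 h (SD, n = 14), or 32.6% and 34.9% of the summed TPM of all members. The 10 highest members made up 76.7% at 4 h and 72.2% at 24 h. At 1 TPM or more there were 45 members at 4 h and 52 at 24 h, and at 10 TPM or more 21 and 24.

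Among the proteases, those fixed in the cell membrane ranked highest. Mmp24, a membrane-type Mmp of neurons, had 172 ± 15 TPM at 4 h and 134 ± 7.8 at 24 h. Mmp17, a membrane-type Mmp held by a lipid anchor, had 88.7 ± 7.8 and 81.2 ± 8.5. Adam10, the main constitutive shedding enzyme for App and Notch receptors, had 94.3 ± 8.2 and 116 ± 7.7. The other Adams at high level were Adam9 and Adam15, both active proteases, and Adam11, Adam22 and Adam23, which lack protease activity and serve as receptors of secreted Lgi proteins at synapses. Of these, Adam9 stood at 63.3 ± 4.6 and 83.1 ± 7.9 TPM, and Adam11 at 65.6 ± 7.4 and 39.5 ± 3.1. Adam17, which releases Tnf and Egf receptor ligands, was lower, at 17.2 ± 2.0 and 26.1 ± 2.1 TPM.

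The Adamts class ranged lower. Adamts1, a lectican-cutting enzyme, stood at 33.4 ± 4.1 and 41.7 ± 8.7 TPM. Adamts3, which trims procollagen and cuts reelin, stood at 42.5 ± 4.6 and 35.4 ± 5.5, and the lectican-cutting Adamts4 at 24.4 ± 2.6 and 31.9 ± 7.9. Only 4 of the 19 Adamts genes reached 10 TPM at either time, and no Adamtsl gene did. Timp3, the inhibitor that stays bound in the matrix, had 32.2 ± 1.7 and 32.8 ± 2.6 TPM, and Timp4 8.47 ± 1.9 and 6.26 ± 1.4.

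The genes are spread over the genome, and the 8 given next are annotated as protein-coding (GRCm38). Reads were counted per gene, so no exon is singled out. The membrane-type members that follow are Mmp14 on chromosome 14 (54431612 to 54445364, plus strand), Mmp24 on chromosome 2 (155775342 to 155818366, plus strand) and Mmp17 on chromosome 5 (129584169 to 129611099, plus strand). Adamts3 lies on chromosome 5 (89677087 to 89883334, minus strand), Adamts1 on chromosome 16 (85793827 to 85803113, minus strand) and Adamts10 on chromosome 17 (33524204 to 33553782, plus strand). Mmp2 lies on chromosome 8 (92827291 to 92853420, plus strand) and Mmp9 on chromosome 2 (164940780 to 164955850, plus strand).

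**Figure D1:**
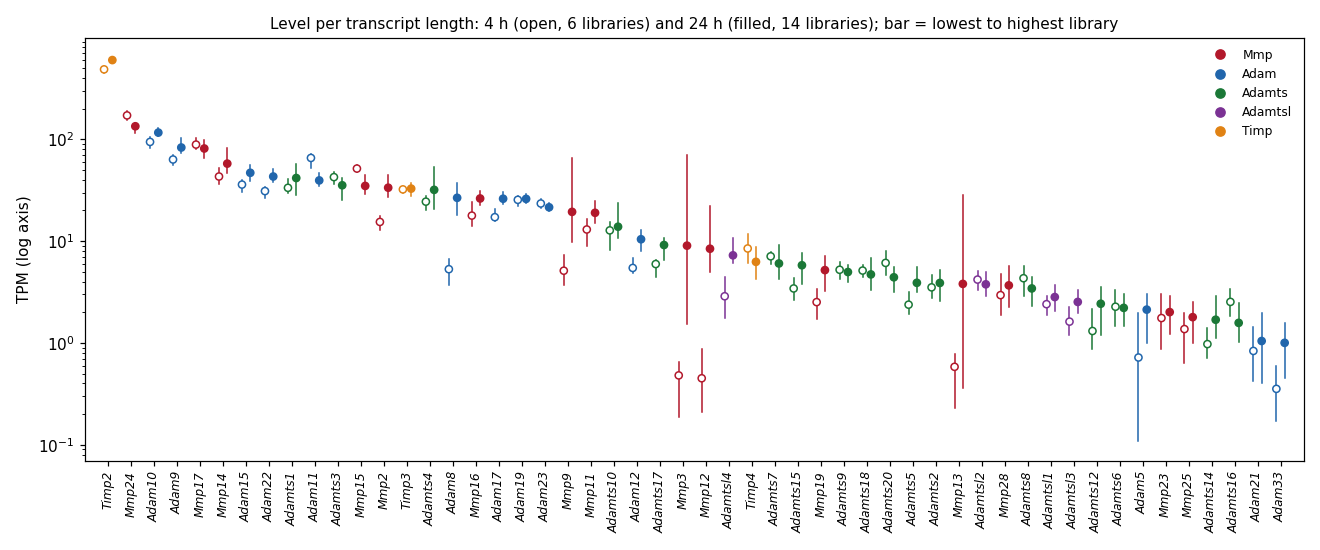
Level per transcript length (TPM, log axis) of every member with a mean of 1 TPM or more at either time, ordered by the 24 h mean and coloured by class. Points are means over all libraries of a time (open, 4 h, 6 libraries; filled, 24 h, 14 libraries) and bars run from the lowest to the highest library: Timp2 leads, and Mmp3, Mmp9, Mmp12 and Mmp13 have the long bars at 24 h.

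The first comparison asked how slices labelled KO differed from WT after 4 h of serum. No member passed the threshold (limma, adjusted p under 0.05 over 15181 genes). The background was 0.0461% of all genes called (7 genes; DESeq2 on the recovered reads called 161), and the smallest adjusted p of a member was 0.166. Of the 49 members tested, 33 had a negative and 16 a positive log2 fold change, with a median of -0.13 against 0.00 for all genes, of which 49.4% were negative. At an unadjusted p under 0.05, 7 members were lower and 5 higher in KO-labelled slices, and 13.9% of all genes passed that mark. On the recovered reads, edgeR and DESeq2 also called no member. Without WT 1 and KO 1, the 2 libraries with Xist reads, 29 of 49 were negative and the median was -0.08. Differences at 4 h are on the scale of log2(normalised reads + 1), which understates those of low genes.

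Membrane-type Mmps were split. Mmp14, the activator of pro-Mmp2 and itself a collagenase, had 946, 881 and 1039.8 normalised reads in the WT libraries and 736, 819 and 761 in the KO-labelled ones. All 3 KO-labelled values lay below all 3 WT values, with a log2 fold change of -0.31 ± 0.08 (SE, limma adjusted p = 0.166). Mmp24 had 2438, 2601 and 2438 in WT and 2901, 2988 and 2866 in KO-labelled libraries, higher in each of the latter, with 0.23 ± 0.06 (limma adjusted p = 0.168). Mmp17 also stood higher without overlap, at 1769.5 to 1951 in WT and 1972 to 2299.5 in KO-labelled libraries, with 0.18 ± 0.08 (limma adjusted p = 0.315). Mmp15 and Mmp16, the other membrane-type members of note, had -0.06 ± 0.08 and 0.17 ± 0.15 and overlapping groups. Of the secreted gelatinases, Mmp2 had -0.05 ± 0.15 and Mmp9 -0.38 ± 0.25, also with overlap.

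Among the Adams, Adam17 had 394, 452 and 489.9 normalised reads in WT and 383, 384 and 379 in KO-labelled libraries. The groups did not overlap, with -0.22 ± 0.10 (limma adjusted p = 0.349). Adam23 went the other way, at 1253 to 1423 in WT and 1455 to 1561 in KO-labelled libraries, with 0.17 ± 0.07 (limma adjusted p = 0.314). Adam10 and Adam22 overlapped between groups, at 0.06 ± 0.09 and 0.15 ± 0.08.

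In the Adamts class 14 of 18 log2 fold changes were negative, with a median of -0.20. Adamts10, which acts on fibrillin microfibrils, had 427, 372 and 425 normalised reads in WT and 361, 227 and 311 in KO-labelled libraries, a log2 fold change of -0.47 ± 0.14 (limma adjusted p = 0.192). Adamts6, its closest relative, had 86.6, 59.1 and 72.2 against 56.0, 44.1 and 38.8, with -0.64 ± 0.22 (limma adjusted p = 0.226). Both were lower in every KO-labelled library than in any WT library, as were Adamts1 (-0.21 ± 0.09), Adamts7 (-0.22 ± 0.13, named after its values were seen) and Adamts16 (-0.58 ± 0.20). Of the 4 Adamts genes with a positive log2 fold change, only Adamts3 had groups without overlap. It had 763, 679.9 and 677 in WT and 850.3, 881 and 809.9 in KO-labelled libraries, with 0.26 ± 0.08 (limma adjusted p = 0.190). The lectican-cutting Adamts4, Adamts5, Adamts9, Adamts15 and Adamts20 had overlapping groups, with log2 fold changes between -0.20 and 0.24.

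Of the inhibitors, Timp4 had 232, 185 and 162 normalised reads in WT and 159, 121 and 148 in KO-labelled libraries, lower in each of the latter, with -0.43 ± 0.16 (limma adjusted p = 0.257). Timp3 was lower without overlap by a smaller difference, -0.11 ± 0.07, and Timp2 had 0.05 ± 0.07. In all, 9 members were lower and 5 higher without overlap between the groups. Over all genes tested, 8.88% were lower and 10.1% higher without overlap. An exact permutation test of a single gene cannot go below p = 0.1 with 3 libraries against 3, and each of these 14 members stood at that value. Exchanged within the 3 same-numbered pairs, the smallest p is 0.25. With the replicate number as a block, limma called 38 genes and no member, with the smallest adjusted p at 0.117 for Adamts10.

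Markers of several cell types differed between the same groups at 4 h, though none was called (smallest limma adjusted p 0.0909, an excitatory neuron marker). All 10 tested endothelial, all 8 mural, all 10 meningeal, all 5 ependymal and all 10 astrocyte markers had negative log2 fold changes in KO-labelled slices, while all 8 excitatory neuron markers had positive ones. The summed normalised reads of the endothelial list were 3388 to 3987 in WT and 2893 to 3279.7 in KO-labelled libraries, those of the meningeal list 8470.2 to 9913 and 5348 to 8776. For mural cells they were 3418 to 3999 and 2771 to 3077, with the marker Tagln at 0 in WT 1. Ependymal markers summed to 829 to 1097 and 527 to 699.95, and astrocyte markers to 27336 to 31827 and 26413 to 27042. Excitatory neuron markers summed to 12243 to 13569 in WT and 16325 to 17309.8 in KO-labelled libraries. The part of cell makeup in the differences of the members was not tested. In bulk RNA, fewer cells of a type and less RNA per cell cannot be told apart.

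**Figure D2:**
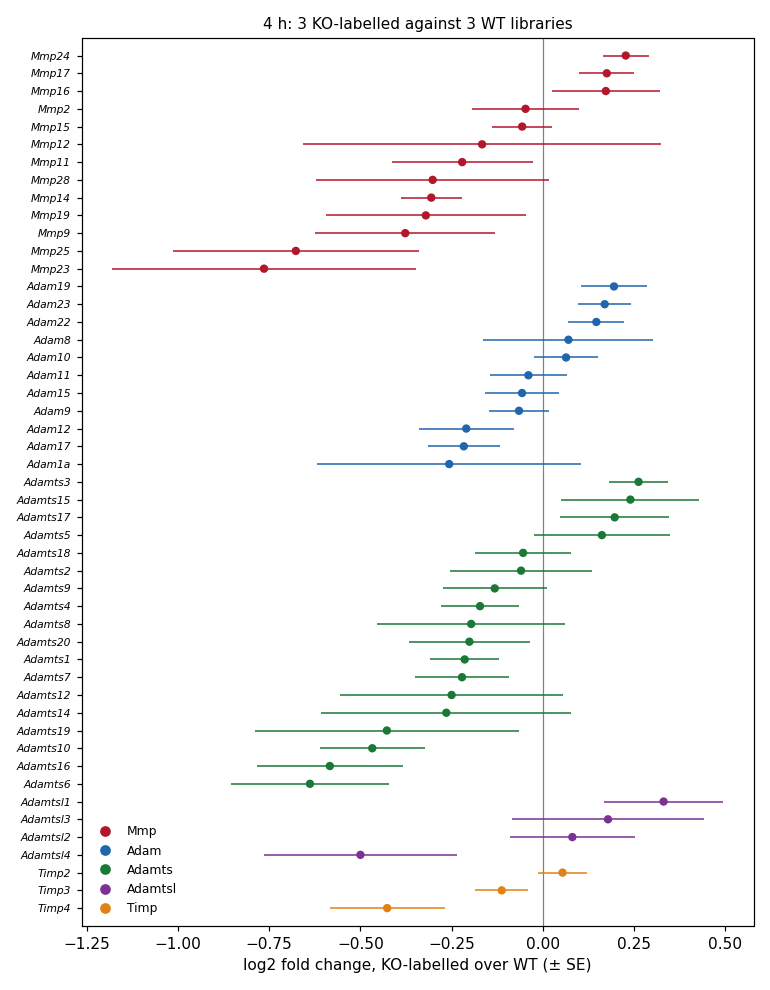
Log2 fold change (x axis, KO-labelled over WT, ± SE from limma) of the 49 members tested at 4 h, grouped and coloured by class, 3 libraries in each group. Of the 49 points, 33 lie left of 0, and none passed the threshold.

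At 24 h the question was the same against Het slices, now in both sexes. No member passed the threshold in females, in males, in their average or in the difference between the sexes (edgeR over 16013 genes, 0% of all genes called in each of these 4 comparisons). DESeq2 and limma-voom called no member either. Without the filter on low counts, edgeR called 4 members higher in the average (Mmp3, Mmp9, Mmp13 and Adamts1; 0.869% of all genes called in that fit), 1 in females (Adamts1; 0.595%), 5 in males (the 4 and Adamts4; 0.727%) and 3 in the difference between the sexes (Mmp3, Mmp9 and Mmp13; 0.545%). In that fit the same log2 fold changes had smaller standard errors, 0.27 for Mmp3 in males against 0.85 with the filter. With the filter off and KO male 1 left out as well, Adamts1 was the 1 member called in the average (0.30 ± 0.07, edgeR adjusted p = 0.0023) and in females, and none was called in males or between the sexes. Of all 30101 genes in that fit, 190 were called in the average, 175 in females, 133 in males and 110 in the difference between the sexes. In the average over sexes 42 of 55 members had a positive log2 fold change, with a median of 0.09 against 0.00 for all genes. At an unadjusted p under 0.05, 7 were higher and none lower, where 6.62% of all genes passed that mark in either direction. Those counts were 5 and 0 without KO male 1, 4 and 0 without KO male 1 and KO male 3, 5 and 1 without KO female 2, and 2 and 1 without the 3 libraries with Ttr reads. In the same order, 5.98%, 3.52%, 5.45% and 6.08% of all genes passed that mark. The count of positive members was 40 of 55 without KO male 1, 44 of 55 without KO female 2 and 45 of 55 without the 3 libraries with Ttr reads. The controls were WT at 4 h and Het at 24 h, and the 2 tables were fitted separately, so the difference in direction between the times was not tested.

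Mmp17 had the smallest unadjusted p in the average, with 0.19 ± 0.06 (SE, edgeR adjusted p = 0.738). Its CPM were 127, 111 and 115 in Het females and 142, 150.5, 129 and 137 in KO-labelled females, with no overlap. In males they were 122, 136 and 131 in Het and 147, 136, 161 and 130.1 in KO-labelled libraries, where the groups overlapped. The exact permutation test within sex gave an unadjusted p = 0.00898 for the average over 1225 arrangements, with KO female 2 counted as a female. Mmp17 led the members by p in these same values, so this p adds no separate support. The same test gave 0.0106 for Adamtsl1, 0.0114 for Adamtsl4 and 0.0147 for Timp2. These were the next smallest unadjusted p of the members in this test, so they add no separate support either.

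Adamts1 had 42.7, 44.2 and 48.5 CPM in Het females and 70.3, 68.0, 38.1 and 59.6 in KO-labelled females. In males it had 49.8, 41.2 and 58.0 in Het and 76.1, 55.6, 60.7 and 57.3 in KO-labelled libraries. KO female 3 was the lowest of all 14 libraries, so the groups overlapped, and the averaged log2 fold change was 0.36 ± 0.12 (edgeR adjusted p = 0.738). The other lectican-cutting members had averaged values of 0.16 ± 0.13 for Adamts4, 0.19 ± 0.09 for Adamts9, 0.08 ± 0.12 for Adamts15 and 0.14 ± 0.13 for Adamts20. Adamts5 had 10.65, 10.59 and 11.2 CPM in Het females and 10.56, 10.55, 9.60 and 9.92 in KO-labelled females, lower in each of the latter by a narrow margin, with -0.09 ± 0.17.

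Adamtsl1 and Adamtsl4, secreted proteins without protease activity of which the second binds fibrillin microfibrils, were next in order of unadjusted p, beside Adamts1. Adamtsl1 had 6.95, 9.98 and 7.94 CPM in Het females and 11.5, 7.94, 12.1 and 9.60 in KO-labelled females. In males it had 6.80, 6.56 and 7.88 in Het and 8.98, 9.14, 11.5 and 9.06 in KO-labelled libraries, with no overlap and 0.46 ± 0.17 (edgeR adjusted p = 0.718). The highest library in each sex (KO female 3, KO male 3) was one of the 3 with Ttr reads.

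Adamtsl4 showed the same pattern, at 6.45 to 6.72 CPM in Het females against 7.71, 6.54, 11.4 and 6.82 in KO-labelled females, where KO female 3 was highest. In males it had 6.40 to 6.90 in Het and 7.87, 7.83, 9.46 and 8.75 in KO-labelled libraries. Without the 3 libraries with Ttr reads the averaged log2 fold change was 0.15 ± 0.11 for Adamtsl4, against 0.33 ± 0.12 with them, and 0.23 ± 0.12 for Adamtsl1, against 0.39 ± 0.12. In females alone it was 0.01 ± 0.16 for Adamtsl4 without them. Summed choroid plexus markers were 20.4 to 30.2 CPM in Het females and 21.9 to 2824 in KO-labelled females, and 23.3 to 30.8 and 23.9 to 503.5 in males, with 9 of 9 tested markers positive in females and Ttr at 0 in several libraries. Adamts1 went the other way, at 0.43 ± 0.10 without those 3 libraries.

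In females 39 of 55 members were positive (median 0.06), 4 were higher at an unadjusted p under 0.05 and none lower, where 4.1% of all genes passed that mark. Without KO female 2, 3 were higher, and without the libraries with Ttr reads 2 were, with none lower in either. Of all genes, 3.63% and 3.16% passed that mark in these fits. Adam15 was among the 4 members higher with all libraries, with 0.21 ± 0.09. Groups of females did not overlap for 2 members that were higher (Mmp17 and Adamts10) and 1 that was lower (Adamts5), against 2.3% and 2.4% of all genes. Adamts10 had 21.8 to 23.3 CPM in Het and 24.9 to 30.6 in KO-labelled females, with 0.30 ± 0.18 (edgeR adjusted p = 1.00). Without KO female 2, the library with Y-linked reads, Mmp17 had 0.21 ± 0.08 and Adamts1 0.31 ± 0.18 in females.

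In males 39 of 55 members were positive (median 0.10), 6 were higher at an unadjusted p under 0.05 and none lower, where 6.87% of all genes passed that mark. Without KO male 1, 3 were higher and none lower, and without KO male 1 and KO male 3 none was higher and 1 lower. Of all genes, 6.24% and 3.20% passed that mark in these fits. Groups of males did not overlap for Adamtsl1, Adamtsl4 and Mmp2, all higher, and for no member that was lower, against 3.4% and 3.77% of all genes. Mmp2, a gelatinase made largely by fibroblasts and vessel-associated cells, had 27.2, 28.4 and 23.1 CPM in Het and 38.1, 29.7, 36.3 and 30.9 in KO-labelled males. All 4 KO-labelled libraries lay above all 3 Het libraries, with 0.36 ± 0.11 (edgeR adjusted p = 0.718). In females it had 23.8 to 28.0 CPM in Het and 23.1 to 28.5 in KO-labelled libraries, with -0.01 ± 0.11. The difference between the sexes was 0.36 ± 0.16 (edgeR adjusted p = 0.977), the smallest unadjusted p of any member in that comparison, where 3.86% of all genes had an unadjusted p under 0.05. In males 9 of 10 meningeal markers were also positive, with sums of 878 to 1127 CPM in Het and 1038 to 1362 in KO-labelled libraries. Endothelial markers went the other way, with 2 of 10 positive and 8 negative, and of 8 mural markers 4 were positive and 4 negative. The part of these cells in the Mmp2 value was not tested, and Mmp2 was 0.20 ± 0.13 without KO male 1 and KO male 3.

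Males against females, averaged over genotype, gave no member past the threshold (edgeR, 0.0187% of all genes called; 0.71% and 5 members without the filter on low counts), with 6 members higher and 4 lower in males at an unadjusted p under 0.05 and 4.42% of all genes past that mark. KO female 2, the library with Y-linked reads, counts as a female here, and without it 5 were higher and 2 lower (5.18% of all genes past that mark). Without KO male 1 and KO male 3, 2 were higher and 1 lower (3.91% of all genes). Adamts6 had 0.42 ± 0.14, Mmp13 1.90 ± 0.68 and Mmp3 1.83 ± 0.66 (edgeR adjusted p = 0.998 for each), and the last 2 rested on the libraries described next. Without KO male 1 and KO male 3 they were 0.43 ± 0.38 for Mmp13 and 0.59 ± 0.41 for Mmp3.

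**Figure D3:**
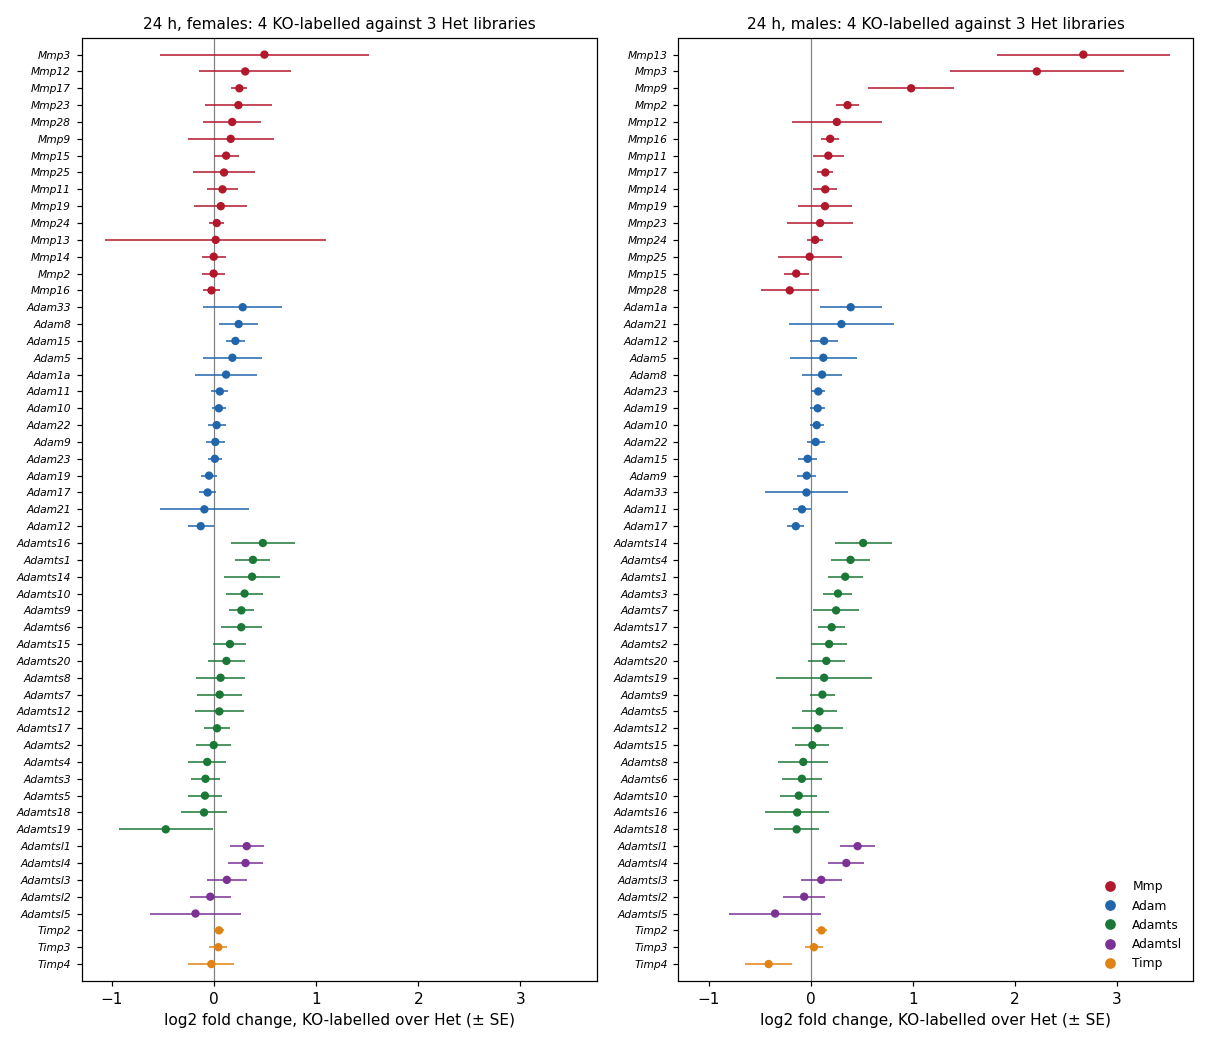
Log2 fold change (x axis, KO-labelled over Het, ± SE from edgeR) of the 55 members tested at 24 h in females (left) and males (right), grouped and coloured by class, 4 KO-labelled and 3 Het libraries in each sex. Mmp13, Mmp3 and Mmp9 stand far right in males with long bars, and none of the points passed the threshold.

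The largest differences at 24 h came from 2 libraries, KO male 1 and KO male 3. Mmp13, a collagenase, had 0.906, 0.381 and 0.827 CPM in Het females, 0.824, 1.03, 0.449 and 0.635 in KO-labelled females and 1.28, 0.798 and 1.17 in Het males. In KO-labelled males it had 19.2, 0.237, 6.49 and 1.35 CPM, so libraries 1 and 3 stood above all others and library 2 below all others. Mmp3, the stromelysin that activates other Mmps, had 31.6, 1.66, 5.47 and 1.83 CPM in KO-labelled males and 0.680 to 3.64 in the other 10 libraries. Its order was the same, with KO male 1 highest and KO male 3 next.

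The log2 fold changes in males were 2.67 ± 0.85 for Mmp13 and 2.21 ± 0.85 for Mmp3 (edgeR adjusted p = 0.718 for each), and Mmp9, the inducible gelatinase, had 0.98 ± 0.42. Without KO male 1 they were 1.37 ± 0.68, 0.47 ± 0.58 and 0.23 ± 0.25. Without KO male 1 and KO male 3 they were -0.29 ± 0.57, -0.31 ± 0.62 and 0.18 ± 0.28. Mmp9 had 58.7 CPM in KO male 1, followed by 19.6 in KO female 1, and 8.82 was the lowest library.

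Further values of KO male 1 were named after they had been seen. Mmp8, the neutrophil collagenase, had 15 reads there against at most 3 in any other library. Mmp10, the second stromelysin, had 7 reads there, 6 in KO male 3 and at most 3 elsewhere. Mmp12, the macrophage elastase, had 40.6 CPM, with 26.7 in Het male 3 and 18.4 in KO male 3. Outside the members, Il1b, a cytokine, had 32.0 CPM in KO male 1, 8.07 in KO male 3 and at most 0.795 elsewhere, and the inhibitor Timp1 had 135 CPM, with 52.4 in KO male 3 and 19.0 to 36.3 elsewhere. Of the 64 members with 20 or more reads at 24 h, 4 were over 2 times the highest of the other 13 libraries in KO male 1 (Mmp3, Mmp8, Mmp9 and Mmp13), against 0.36% of all genes with as many reads. Library totals were 9084118 reads in KO male 1 and 10928563 in KO male 3, within the range of the other libraries. Neutrophil markers had very low counts. In KO male 1, S100a8 (6 reads), Camp (5) and S100a9 (4) were above every other library, and Csf3r (19) was not. In KO male 3 no single marker was above every other library. Without Csf3r, which held most of the reads of that list, the other 9 markers summed to 22 reads in KO male 1 and 11 in KO male 3, against 2 to 8 in each of the other 12 libraries. Of the 10 markers, 2 were at 0 in KO male 1 (Ly6g and Retnlg) and 2 in KO male 3, against 3 to 8 elsewhere. With Csf3r the sums overlapped, at 41 reads in KO male 1 and 19 to 52 over all 14 libraries. The part of these cells in the Mmp values was not tested.

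Mmp3, Mmp8, Mmp10, Mmp12 and Mmp13 are neighbours. They lie with Mmp1a, Mmp1b, Mmp7, Mmp20 and Mmp27 on chromosome 9 within 427 kb (GRCm38, 7272514 to 7699585), whereas Mmp9 lies on chromosome 2. Mmp3, Mmp8, Mmp10, Mmp12 and Mmp13 each had their highest level at 24 h in KO male 1, and Mmp27 had 4 reads there and at most 3 elsewhere. Mmp1b, Mmp7 and Mmp20 had no read in any library at 24 h and Mmp1a had 1 read in all, so these genes cannot show a change. A count of 0 is compatible with up to 3 counts, or 0.330 CPM in KO male 1, counting error only.

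The 250 bases before the RefSeq start (GRCm38.p6, plus strand) are shown for the 4 cluster genes that had their highest level in KO male 1 and their next in KO male 3, chosen after these values were seen. Capitals mark the AP-1 motif TGANTCA (read on both strands, which are alike for this motif) and the TATA box motif TATAAA (both strands searched). Mmp13 spans chr9:7272264-7272513, Mmp3 chr9:7445572-7445821, Mmp10 chr9:7502092-7502341 and Mmp8 chr9:7558179-7558428.
Mmp13: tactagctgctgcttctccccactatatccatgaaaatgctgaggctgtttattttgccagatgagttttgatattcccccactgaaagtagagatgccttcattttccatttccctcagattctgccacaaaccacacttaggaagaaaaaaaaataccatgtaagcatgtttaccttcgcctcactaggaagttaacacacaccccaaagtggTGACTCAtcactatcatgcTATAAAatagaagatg
Mmp3: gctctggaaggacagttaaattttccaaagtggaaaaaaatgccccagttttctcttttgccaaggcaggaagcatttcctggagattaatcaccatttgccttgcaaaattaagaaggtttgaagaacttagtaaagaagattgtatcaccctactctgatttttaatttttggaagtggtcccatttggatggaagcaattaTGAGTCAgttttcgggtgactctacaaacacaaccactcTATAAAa
Mmp10: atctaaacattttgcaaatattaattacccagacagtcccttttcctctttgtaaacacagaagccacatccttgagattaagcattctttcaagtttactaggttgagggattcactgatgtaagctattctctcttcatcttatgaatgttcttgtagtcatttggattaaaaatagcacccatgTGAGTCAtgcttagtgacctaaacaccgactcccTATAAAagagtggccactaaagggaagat
Mmp8: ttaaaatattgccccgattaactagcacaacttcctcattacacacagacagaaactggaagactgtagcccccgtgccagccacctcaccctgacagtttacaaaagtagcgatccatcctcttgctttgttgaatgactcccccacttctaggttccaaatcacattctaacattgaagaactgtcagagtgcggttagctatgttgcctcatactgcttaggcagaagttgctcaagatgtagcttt

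An AP-1 match lay 35 to 29 bases before the start in Mmp13, 46 to 40 in Mmp3 and 63 to 57 in Mmp10, each followed by a TATAAA match closer to the start. Mmp8 had neither motif in its window. Over the cluster, 8 of the 10 genes had an AP-1 match in a window (Mmp8 and Mmp27 had none), including Mmp1a, Mmp1b, Mmp7 and Mmp20, which had at most 1 read in all 14 libraries together. Of all 32851 promoter windows, 6.75% held the AP-1 motif and 12.4% the TATA box motif in the same 250 bases. Of the 52 members with a window, 12 held the AP-1 motif, of which 8 were Mmps of the cluster, and no other of the 18 Mmps with a window did. A match describes the letters, not binding.

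**Figure D4:**
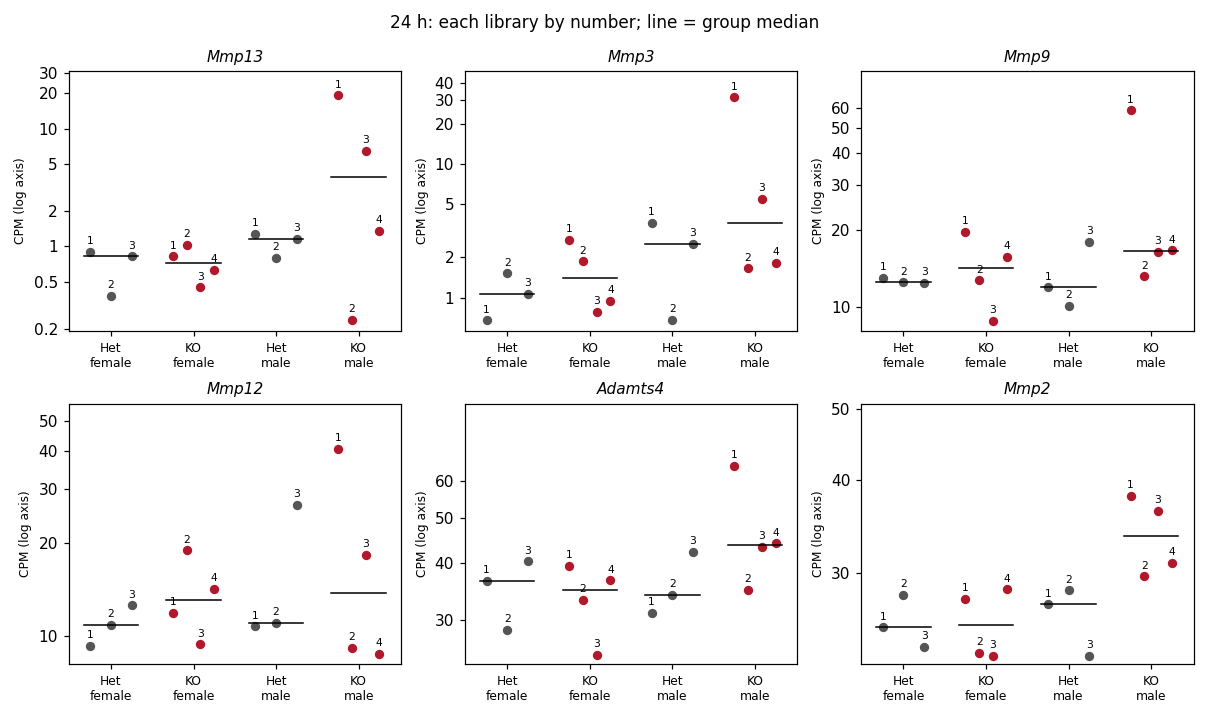
CPM (log axes) of Mmp13, Mmp3, Mmp9, Mmp12, Adamts4 and Mmp2 in each of the 14 libraries at 24 h, numbered within group, with the group median as a line (grey, Het; red, KO-labelled). KO male 1 is the highest point of each panel, and KO male 3 is next for Mmp13, Mmp3 and Mmp2.

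The 4 h and 24 h libraries came from separate tables with different control genotypes, so their levels were set side by side without a test, as CPM over the 19722 genes in both tables. Of the 53 members with at least 1 CPM, 11 had all 14 libraries at 24 h above all 6 at 4 h and 3 had all below. Over all genes with that level, 15.7% were above and 5.18% below. No Adamts gene was outside the 4 h range (0 of 18), against 6 of 13 Adam and 6 of 15 Mmp genes.

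Mmp12 had a median of 0.794 CPM at 4 h (range 0.401 to 1.67) and 11.4 at 24 h (8.87 to 40.3). Adam8, an Adam of leukocytes and microglia, had 6.43 (4.32 to 7.97) and 30.8 (20.2 to 43.3). Mmp9 had 4.07 (3.46 to 6.73) and 13.04 (8.70 to 58.4), and Mmp2 13.7 (11.1 to 15.6) and 27.7 (22.8 to 37.9). The gap between the times was narrow for Mmp9, whose highest library at 4 h and lowest at 24 h lay closer together than the libraries of either time. Mmp3 was above as well, at 0.258 and 1.75 CPM, and Mmp13 overlapped. Adam17 had 29.96 (28.9 to 38.6) at 4 h and 45.8 (40.4 to 54.8) at 24 h, and Adam10, Adam12, Adam22, Adamtsl4 and Timp2 were the others above. Below the 4 h range were Mmp24 (210.3 to 157 CPM by medians), Mmp15 (72.4 to 45.3) and Adam11 (101 to 55.4). Mmp12, Adam8 and Adam12 were named after their values had been seen.

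**Figure D5:**
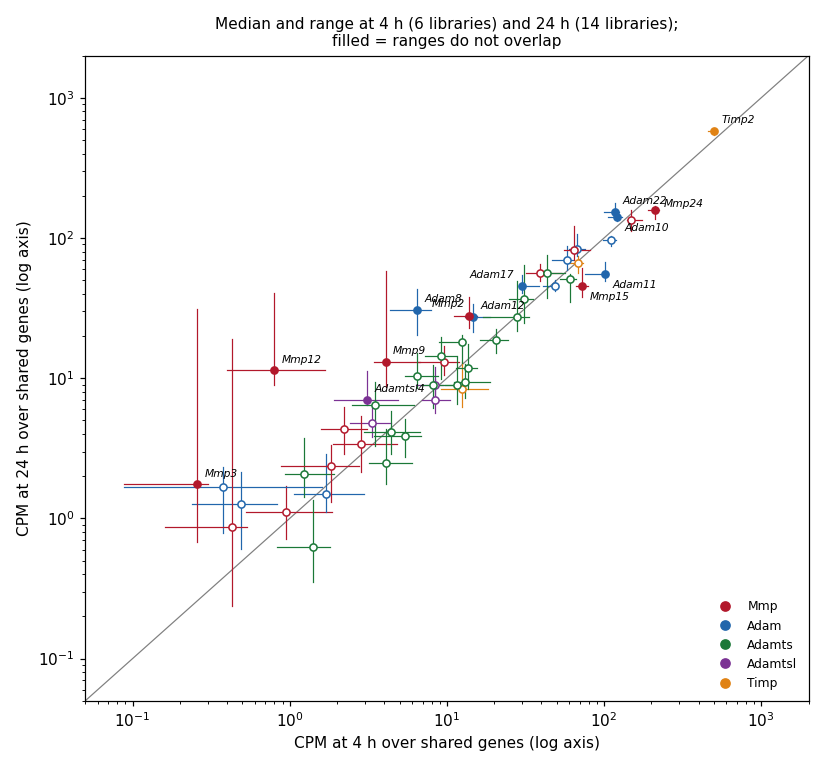
CPM over shared genes at 4 h (x axis, 6 libraries) and 24 h (y axis, 14 libraries), both log axes, for the 53 members with at least 1 CPM, coloured by class. Points are medians, lines run from the lowest to the highest library and the grey line marks equal levels: 11 filled points lie above it and 3 below it, with ranges that do not overlap.

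The other members carried few reads. At 24 h, 28 members were not tested, none with more than 15 reads in a library; 19 of these were Adams, most of them known from testis, of which 8 had no read at all. At 4 h, 12 members in the table were not tested, none with more than 20 reads in a library. Reads from overlapping genes could not be told apart, since the strand setting is not given in the sources used here: Timp3 overlaps Syn3, Timp4 overlaps Syn2 and Mmp12 overlaps Mmp1b, each on the other strand.

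Genes that act on or with the members were read from 6 lists of 75 genes. None was called at 4 h or in any 24 h comparison (limma and edgeR). Among activators of the proteases, such as Furin and Plat, 7 of 9 were negative at 4 h with a median of -0.14, and Pcsk5, a proprotein convertase, had -0.32 ± 0.13. Among lecticans and other matrix substrates 8 of 9 were negative, with a median of -0.14, Bcan (brevican) at -0.23 ± 0.09 and Tnc (tenascin C) at -0.36 ± 0.14. Other inhibitors were negative in 9 of 12 with a median of -0.08, and Spock1, a testican, had 0.28 ± 0.07. Other matrix proteases were negative in 7 of 12 (median -0.07), and partners of Adam and Mmp proteins in 6 of 12 (median -0.02). Shed membrane substrates had a median of 0.04, with Notch1 at -0.34 ± 0.08 (limma adjusted p = 0.131).

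At 24 h, averaged over sexes, the same lists had medians between 0.02 and 0.13, and the matrix substrates had the highest. Reln (reelin), a substrate of Adamts3, had 0.35 ± 0.07 (edgeR adjusted p = 0.615), Vcan (versican) 0.13 ± 0.05 and Lrp1, which clears proteases and Timps from the cell surface, 0.25 ± 0.06 (edgeR adjusted p = 0.738). In males Vcan had 0.30 ± 0.07 and Bcan -0.32 ± 0.10 (edgeR adjusted p = 0.718 for each).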

How the data were processed

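RNA-seq libraries of cultured forebrain slices were used: 6 at 4 h and 14 at 24 h of serum. Groups come from the sample titles and genotype fields. Per the submitters' processing notes, TopHat2, HTSeq and DESeq2 1.38.3 were used with GRCm38 (mm10), with no roles named. Which annotation release and which strand setting served is not given in the sources used here. For 24 h the authors deposited raw counts of reads per gene. For 4 h the deposited values are a signal: counts scaled by a size factor of each library. Dividing by the smallest step gave back whole reads, for 100% of values within a tolerance of 0.05.

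The 4 h values were tested with limma 3.58.1 (intensity trend) on log2(value + 1) for genes with a mean of at least 10; limma called 7 genes; on the recovered reads edgeR called 7 and DESeq2 161. Printed 4 h values are from the fit without the block. The 24 h counts were tested with edgeR 4.0.16 (R 4.3.3; TMM, default expression filter, quasi-likelihood, 1 mean per genotype and sex). Tests are two-sided with Benjamini-Hochberg adjustment over all genes tested at 0.05. For edgeR, SE is the size of the log2 fold change over the root of F. For limma, it is the standard error from the moderated variance of the fit. Within-group library pairs differed by more than sampling noise (chi-square per degree of freedom from 3.17 to 12.7). The fits were tested on simulated data in which all genes shared 1 fixed spread and only well-read genes were changed. Of 100 genes changed by log2 size 1, 95% were recovered at 4 h (15171 genes tested). In the 24 h average 100% of 100 were (15935 genes tested). Recovery of smaller changes, of genes with few reads or of genes with a larger spread was not tested, so these shares do not cover most members. TPM used GENCODE exon lengths of GRCm38 (release 21). Promoter windows are from RefSeq, GRCm38.p6, 52 of 83 members matched.

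At 4 h, libraries with the same number deviated together (correlations 0.264, 0.140 and 0.175). The main 4 h fit ignores this pairing, and so do its printed SEs and adjusted p-values. Only the fit with the replicate number as a block and the permutation within pairs use it. The 24 h numbers were not taken as pairs in the main fit either. Members and lists were chosen with earlier results of these data known. A member was named if it was among the smallest unadjusted p (6 at 4 h and in the 24 h average, 3 in other comparisons), among the highest levels of its class (5, or 3 for Adamtsl and Timp), or 1 of a fixed set of Mmp2, Mmp3, Mmp9, Mmp14 to Mmp16, Adam10, Adam17, Adam22, Adam23, 6 lectican-cutting Adamts and the Timps. Alternatives were other pseudocounts, filters, scalings, tools, a replicate block, single libraries left out and, chosen after seeing the data, 3 sets of libraries left out and a fit without the filter and KO male 1.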

Additional observations from a re-analysis of the deposited data

Results flagged for a closer look

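In groups of 4 libraries, a single value was set apart from the other 3 by most of the group's range (Dixon's criterion at the 95% level) in 4 of the 70 groups examined, and chance gives about 1 in 20. All 4 were KO-labelled males at 24 h. Mmp3 had 31.6 CPM in KO male 1 against 1.66 to 5.47 in the others. Mmp9 had 58.7 CPM in KO male 1 against 13.2 to 16.6. Adamtsl1 had 11.5 CPM in KO male 3 against 8.98 to 9.14. Adamtsl2 had 8.98 CPM in KO male 4 against 6.49 to 6.65. No cause was tested.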

How the results depend on the processing

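No member was called under any alternative other than the 24 h fits without a filter on low counts. There edgeR called 4 members in the average (Mmp3, Mmp9, Mmp13 and Adamts1), 1 in females, 5 in males, 3 in the difference between the sexes and 5 in males against females. In the same order, 0.869%, 0.595%, 0.727%, 0.545% and 0.71% of all genes were called. With KO male 1 left out of that fit too, the counts were 1, 1, 0, 0 and 3 in the same order, beside 190, 175, 133, 110 and 152 of all 30101 genes. The averaged values of Adam11 (0.0049) and Mmp14 (-0.0058) turned there. Under the replicate block no member was called at either time, while 38 genes were called at 4 h (7 without the block, 211 without KO 2 and 1 without WT 1); the block turned the averaged 24 h log2 fold changes of Adamts16 (-0.015), Adamts5 (0.030) and Adamts6 (-0.025). The median of the members stayed between -0.14 and -0.06 at 4 h and between 0.07 and 0.12 in the 24 h average. Leaving out sets of libraries, and the joint setting above, were chosen after seeing the data. Without both Xist libraries at 4 h, Adamts9 (0.074), Mmp2 (0.074) and Timp2 (-0.014) turned. Without KO male 1 and KO male 3, the averaged values of Adam9 (0.028), Adamtsl2 (0.0092), Mmp13 (-0.13) and Mmp14 (-0.0012) turned, and without the 3 libraries with Ttr reads those of Adam9 (0.034) and Adamts5 (0.012).

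With single libraries left out, these log2 fold changes crossed 0. At 4 h the ranges were -0.015 to 0.13 for Adam10, -0.13 to 0.11 for Adam11, -0.14 to 0.055 for Adam15, -0.0048 to 0.25 for Adamts5, -0.055 to 0.20 for Adamtsl2, -0.019 to 0.31 for Mmp16 and -0.15 to 0.067 for Mmp2. In the 24 h average they were -0.053 to 0.027 for Adam11, -0.056 to 0.060 for Adam9, -0.013 to 0.26 for Adamts10, -0.11 to 0.049 for Adamts5, -0.12 to 0.089 for Adamtsl2, -0.0047 to 0.12 for Mmp14, -0.077 to 0.021 for Mmp15 and -0.0073 to 0.063 for Mmp24. The causes were not tested. Members with at most 15 reads in every library at 24 h were left untested by the filter.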
